A study of Mus musculus with 6 samples.

Results

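The 10 genes described here carry the transcriptional output of the Hippo pathway, out of 22380 protein-coding genes in the mouse annotation. They are *Yap1* and *Wwtr1*, which encode the coactivators YAP and TAZ, the genes *Tead1*, *Tead2*, *Tead3* and *Tead4* of their DNA-binding partners, and *Ctgf*, *Cyr61*, *Ankrd1* and *Amotl2*, which YAP and TEAD are known to activate. The genes were chosen by name and not by a cut on their values, though with earlier results of these data known. Every ATAC-seq peak that overlapped the gene or the 20 kb on either side of it was taken. A peak within 1 kb of an annotated start of the gene is called a start-site peak below, and the rest are called other peaks. This gave 18 of 28024 peaks in β-TC3 cells, 5 of 9821 in MV+ cells and 12 of 14022 in RAG cells.

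ATAC-seq reads out open chromatin, since the transposase Tn5 places adapters mainly where DNA is exposed. The study used 3 untreated mouse cell lines chosen for their *Pax6* activity: β-TC3 cells (Pax6-HIGH, labelled Beta-TC3) from an insulinoma (β-TC lines arose in mice with a viral T antigen driven by the insulin promoter), MV+ cells (Pax6-ON) from cultured lens epithelia of a wildtype C57BL6 mouse, and RAG cells (Pax6-OFF) from a renal adenocarcinoma of the BALB/c strain. Each line gave 2 libraries of 50000 nuclei, which the authors pooled in 1 peak call, so that each value below stands for a whole line and has neither a replicate error nor a test. Nuclei were released with 0.2% NP40 for MV+ and with 0.1% for the other lines, a step that cannot be told apart from the line. The 3 lines were grown in the same serum-supplemented medium, and the labels name no drug or engineered allele for any of them.

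A peak's pileup is the number of fragments at its summit, not scaled for depth, and the lowest pileup that was called was 25 fragments in β-TC3, 30 in MV+ and 25 in RAG cells. A gene without a peak may therefore still be accessible below those limits. They are the lowest of a whole line, so a site above them may also go uncalled where the local background is high. Because pileups are not scaled for depth, they were ranked within a line. A percentile below is the percent of that line's peaks with a lower pileup. Its interval comes from the exact 95% Poisson interval of the pileup, which covers counting error only. That interval takes fragments as independent, and whether duplicate reads were removed before the call is unclear. The calls rested on 100254099, 130955836 and 102223606 fragments, mitochondrial ones included. Of the markers of the tissues of origin, only some were called. Of 7 beta cell genes, β-TC3 cells had start-site peaks at 3 (*Nkx6-1*, *Neurod1* and *Chga*, not at *Ins1*, *Ins2*, *Iapp* or *Pdx1*), and MV+ cells at *Nkx6-1*. The β-TC3 share, 42.9%, was near the 46.5% of all protein-coding genes in that line. Of 7 lens genes, MV+ cells had them at 3 (*Prox1*, *Maf* and *Pax6*, all of which also had one in β-TC3 cells), where 21.5% of all genes did, and RAG cells at *Maf* and *Cryab*. Of 7 kidney epithelial genes, RAG cells had them at 2 (*Pax2* and *Cdh16*), or 28.6%, beside 36.1% of all genes, and the other lines at none.

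The Hippo pathway is a kinase cascade that restrains growth. When the MST and LATS kinases are active, YAP and TAZ are phosphorylated and held in the cytoplasm, and when they are inactive, YAP and TAZ enter the nucleus and bind TEAD factors on DNA, at a sequence whose core is written GGAATG, often beside sites for AP-1. YAP is known to be switched off as pancreatic endocrine cells form, while it is needed in the lens epithelium and in the developing kidney.

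The promoter of *Cyr61* is shown first because it holds the TEAD core while its chromatin was not called as open. The sequence is the 250 bp before the annotated start (chr3:145312950-145313199, minus strand) in mm9, read 5′ to 3′ along the gene, with GGAATG or its reverse complement CATTCC in capitals.
Cyr61 promoter: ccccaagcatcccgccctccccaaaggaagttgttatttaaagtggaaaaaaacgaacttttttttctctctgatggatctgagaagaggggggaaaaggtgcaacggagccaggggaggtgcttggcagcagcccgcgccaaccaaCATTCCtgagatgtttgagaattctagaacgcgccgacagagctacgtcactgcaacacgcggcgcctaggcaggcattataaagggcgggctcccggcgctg
The core occurs once, 98 bp before the start and on the strand opposite to the gene.

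The same 250 bp were examined in 9 of the genes (all but *Ctgf*). The core was present in 7 of them, against 11.4% of all protein-coding promoters. *Ankrd1* had 2 copies, 205 and 118 bp before the start. *Yap1*, *Wwtr1*, *Tead1*, *Tead3*, *Cyr61* and *Amotl2* had 1 copy each, between 59 and 191 bp before the start, and *Tead2* and *Tead4* had none. These counts describe letters in the mm9 reference and say nothing of whether a factor was bound.

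More of these genes had a start-site peak in RAG cells than in the other lines. A start-site peak was called at 7 of the 10 genes in RAG cells, against 36.1% of all protein-coding genes in that line. In β-TC3 cells it was called at 3 of the 10, against 46.5%, although this line had the most peaks. In MV+ cells it was called at 2 of the 10, against 21.5%. The share among these genes was thus above that of all genes in RAG, below it in β-TC3 and near it in MV+ cells. *Tead4* had a start-site peak in all 3 lines, as had 17.5% of protein-coding genes. *Tead1* and *Amotl2* had one in β-TC3 and RAG cells, as had 15.6%, and *Ankrd1* had one in MV+ and RAG cells. *Yap1*, *Wwtr1* and *Tead3* had one in RAG cells alone, a pattern of 2.48% of protein-coding genes. *Tead2*, *Ctgf* and *Cyr61* had none in any line, as had 49.4% of protein-coding genes. With the same number of peaks in every line (the 9821 with the smallest q-values), the counts were 2 in β-TC3, 2 in MV+ and 6 in RAG cells, beside 28.0%, 21.5% and 30.8% of all protein-coding genes.

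**Figure D1:**
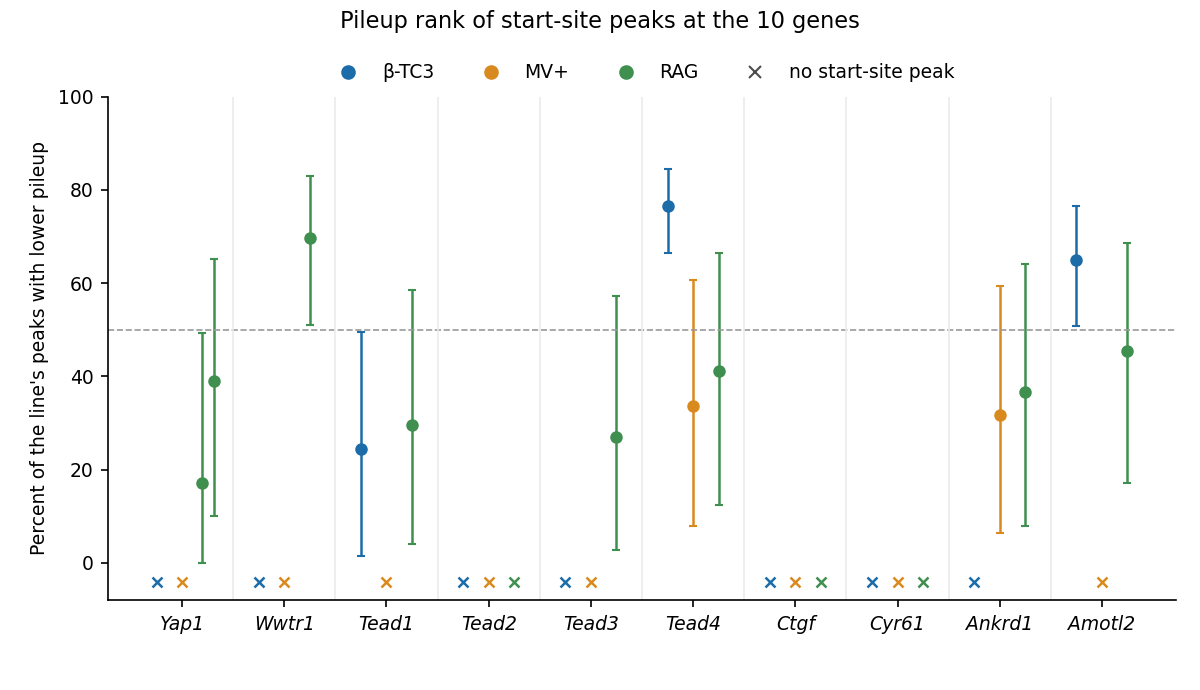
Percent of the line's peaks with a lower pileup (vertical axis) for each start-site peak of the 10 genes (horizontal axis), coloured by cell line. Bars are the percentiles at the ends of the exact 95% Poisson interval of the pileup, crosses mark genes without a start-site peak, and the dashed line is the middle of the line's peaks. RAG cells have points at 7 genes, of which only *Wwtr1*, at 69.6%, lies above the middle.

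Both coactivator genes had a start-site peak called in RAG cells and in neither of the other lines. *Yap1* (chromosome 9, 7931999 to 8004596, minus strand) had 2 start-site peaks in RAG cells. The first, at chr9:8004066-8004882, had its summit 60 bp before the first start, a pileup of 45 fragments (interval 32.8 to 60.2), a fold enrichment of 3.88 over the local background and a percentile of 39.0% (10.1 to 65.2). The second, at chr9:8003563-8003848, was weaker, with 36 fragments (25.2 to 49.8), a fold enrichment of 3.12 and a percentile of 17.2% (0.0927 to 49.2). It lay 4 bp from another annotated start of the gene, in a non-coding exon. No peak of β-TC3 or MV+ cells fell in the 112598 bp examined around *Yap1*. The nearest to its first start lay 37.9 kb away in both.

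*Wwtr1* (chromosome 3, 57259571 to 57379832, minus strand) had the strongest start-site peak of the 10 genes in RAG cells. The peak at chr3:57379283-57380501 was 1219 bp long and had 65 fragments (50.2 to 82.8), a fold enrichment of 5.53 and a percentile of 69.6% (50.9 to 83.0). β-TC3 cells had no start-site peak there but had 2 weak peaks at the far end, 128 kb (beyond the gene) and 103 kb (in an intron) from the first start, with 43 and 28 fragments (percentiles of 32.6% and 1.57%). MV+ cells had no peak in the 160262 bp window. The start of *Wwtr1* thus resembled that of *Yap1* in being called in RAG cells alone.

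The RAG start-site summits of *Wwtr1* and *Tead1* and the first of the 2 at *Yap1* held the core, and are shown for that reason, along the gene as before. The second *Yap1* summit held none. The *Yap1* stretch is chr9:8004597-8004755, cut at the first start, *Wwtr1* is chr3:57379840-57380039 and *Tead1* is chr7:119822603-119822802 (plus strand, the others minus).
Yap1, RAG start-site summit: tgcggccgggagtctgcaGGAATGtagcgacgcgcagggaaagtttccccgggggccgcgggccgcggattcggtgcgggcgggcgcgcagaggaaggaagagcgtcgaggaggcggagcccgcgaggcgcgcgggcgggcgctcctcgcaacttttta
Wwtr1, RAG start-site summit: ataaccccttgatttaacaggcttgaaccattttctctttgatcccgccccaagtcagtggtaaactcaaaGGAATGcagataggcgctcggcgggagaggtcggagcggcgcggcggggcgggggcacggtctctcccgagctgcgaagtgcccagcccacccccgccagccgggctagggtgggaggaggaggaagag
Tead1, RAG start-site summit: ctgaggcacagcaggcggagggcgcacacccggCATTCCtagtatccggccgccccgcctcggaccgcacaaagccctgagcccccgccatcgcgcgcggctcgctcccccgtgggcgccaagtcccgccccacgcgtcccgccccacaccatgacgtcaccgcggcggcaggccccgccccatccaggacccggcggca
The capitals lie 136, 131 and 191 bp before the first start, on the gene's strand in *Yap1* and *Wwtr1* and on the opposite strand in *Tead1*.

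Among the TEAD genes, *Tead4* was called in every line, and no start-site peak was called at *Tead2*. *Tead4*, a TEAD factor known from the trophectoderm and from muscle (chromosome 6, 128174306 to 128250841, minus strand), had start-site peaks of 89 fragments in β-TC3 (71.5 to 109.5), 52 in MV+ (38.8 to 68.2) and 46 in RAG cells (33.7 to 61.4). Their fold enrichments were 3.86, 3.49 and 3.97, and their percentiles 76.5% (66.5 to 84.5), 33.7% (7.92 to 60.6) and 41.2% (12.4 to 66.4). The 3 summits lay within 159 bp of each other, in annotated untranslated exon sequence. These percentiles come from peak lists of unequal length and were not tested against each other. By fold enrichment the percentiles were 51.5%, 38.8% and 52.2%. Against the peaks of chromosome 6 alone the β-TC3 pileup percentile was 79.0%.

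*Tead1*, a broadly expressed TEAD factor (chromosome 7, 119822832 to 120050319, plus strand), had start-site peaks in 2 lines. The pileup was 39 fragments in β-TC3 (27.7 to 53.3) and 41 in RAG cells (29.4 to 55.6), with fold enrichments of 3.13 and 3.54 and percentiles of 24.3% (1.57 to 49.6) and 29.5% (4.14 to 58.5). Both peaks were thus in the lower part of their lines' ranks. They overlapped, but the summits were 656 bp apart, 527 bp after the first start in β-TC3 and 129 bp before it in RAG cells. MV+ cells had no peak in the 267488 bp window, and their nearest one was 528 kb from the first start.

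*Tead3* had a start-site peak in RAG cells alone (chromosome 17, 28468616 to 28487750, minus strand). Its pileup was 40 fragments (28.6 to 54.5), its fold enrichment 2.75, the lowest of the start-site peaks of the 10 genes, and its percentile 27.1% (2.71 to 57.3). *Tead2*, a TEAD factor known from early embryos (chromosome 7, 52471123 to 52489005, plus strand), had no peak of any line in its 57883 bp window. The nearest peaks to its first start were 61.1 kb away in β-TC3, 198 kb in MV+ and 60.9 kb in RAG cells.

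Of the targets, *Ctgf* and *Cyr61* were not called at their starts in any line, while *Ankrd1* and *Amotl2* were called in 2 lines each. *Ctgf*, which encodes a secreted matrix protein (chromosome 10, 24315248 to 24318489, plus strand), had no peak in its 43242 bp window. The peaks nearest to its start were 116 kb away in β-TC3, 2018 kb in MV+ and 274 kb in RAG cells.

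*Cyr61*, a related secreted matrix protein (chromosome 3, 145309935 to 145312949, minus strand), had 1 peak, in β-TC3 cells. This peak, at chr3:145319828-145320526, began 6.88 kb before the start between genes, and had 49 fragments (36.3 to 64.8), a fold enrichment of 3.91 and a percentile of 42.7% (19.8 to 60.9). The nearest peaks to the start were 229 kb away in MV+ and 109 kb away in RAG cells.

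*Ankrd1*, which encodes a nuclear ankyrin repeat protein of muscle (chromosome 19, 36186455 to 36194334, minus strand), was called at its start and at an upstream site in the same lines. The start-site peaks had 51 fragments in MV+ (38.0 to 67.1) and 44 in RAG cells (32.0 to 59.1), with fold enrichments of 3.43 and 3.80 and percentiles of 31.6% (6.38 to 59.3) and 36.6% (8.03 to 64.0). Their summits were 63 bp apart, 268 and 331 bp before the start. The upstream peaks had 50 fragments in MV+ (37.1 to 65.9) and 44 in RAG cells, with fold enrichments of 3.36 and 3.80. Their summits were 75 bp apart, 9486 and 9561 bp before the start. β-TC3 cells had no peak in the 47880 bp window. A start-site peak in MV+ and RAG but not in β-TC3 cells was found at 0.563% of protein-coding genes.

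Because *Ankrd1* was the only target called in MV+ cells, its MV+ summits are shown, followed by the only peak at *Cyr61*, which held no core. They lie at chr19:36194502-36194701, chr19:36203720-36203919 and chr3:145320037-145320236, all on the minus strand.
Ankrd1, MV+ start-site summit: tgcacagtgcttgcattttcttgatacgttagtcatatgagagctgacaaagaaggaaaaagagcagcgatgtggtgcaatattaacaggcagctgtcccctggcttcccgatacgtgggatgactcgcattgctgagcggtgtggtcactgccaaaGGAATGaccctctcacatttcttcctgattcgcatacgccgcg
Ankrd1, MV+ upstream summit: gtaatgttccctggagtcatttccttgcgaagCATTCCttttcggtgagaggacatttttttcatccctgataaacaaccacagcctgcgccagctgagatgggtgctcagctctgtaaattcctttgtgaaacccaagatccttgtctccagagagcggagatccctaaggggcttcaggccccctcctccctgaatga
Cyr61, β-TC3 upstream summit: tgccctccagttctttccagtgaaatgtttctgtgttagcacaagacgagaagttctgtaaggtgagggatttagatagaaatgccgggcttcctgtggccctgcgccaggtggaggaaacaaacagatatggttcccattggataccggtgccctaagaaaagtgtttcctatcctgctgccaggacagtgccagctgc
The core of the start-site summit lies 205 bp before the *Ankrd1* start and that of the upstream summit 9548 bp before it, on the opposite strand. The RAG upstream summit window held the same copy, whereas the RAG start-site summit window, centred farther upstream, held none.

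*Amotl2*, which encodes an angiomotin-like junction protein that also binds YAP (chromosome 9, 102619002 to 102635748, plus strand), was called in β-TC3 and RAG cells. Its start-site peaks had 70 fragments in β-TC3 (54.6 to 88.4) and 48 in RAG cells (35.4 to 63.6), with fold enrichments of 5.51 and 4.13. The percentiles were 64.9% (50.7 to 76.5) and 45.4% (17.2 to 68.7), with overlapping intervals. The summits were 70 bp apart, 981 and 911 bp after the first start but 15 and 85 bp before another annotated start inside the gene. The open site thus lay at an internal annotated start. No peak of MV+ cells fell in the 56747 bp window.

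**Figure D2:**
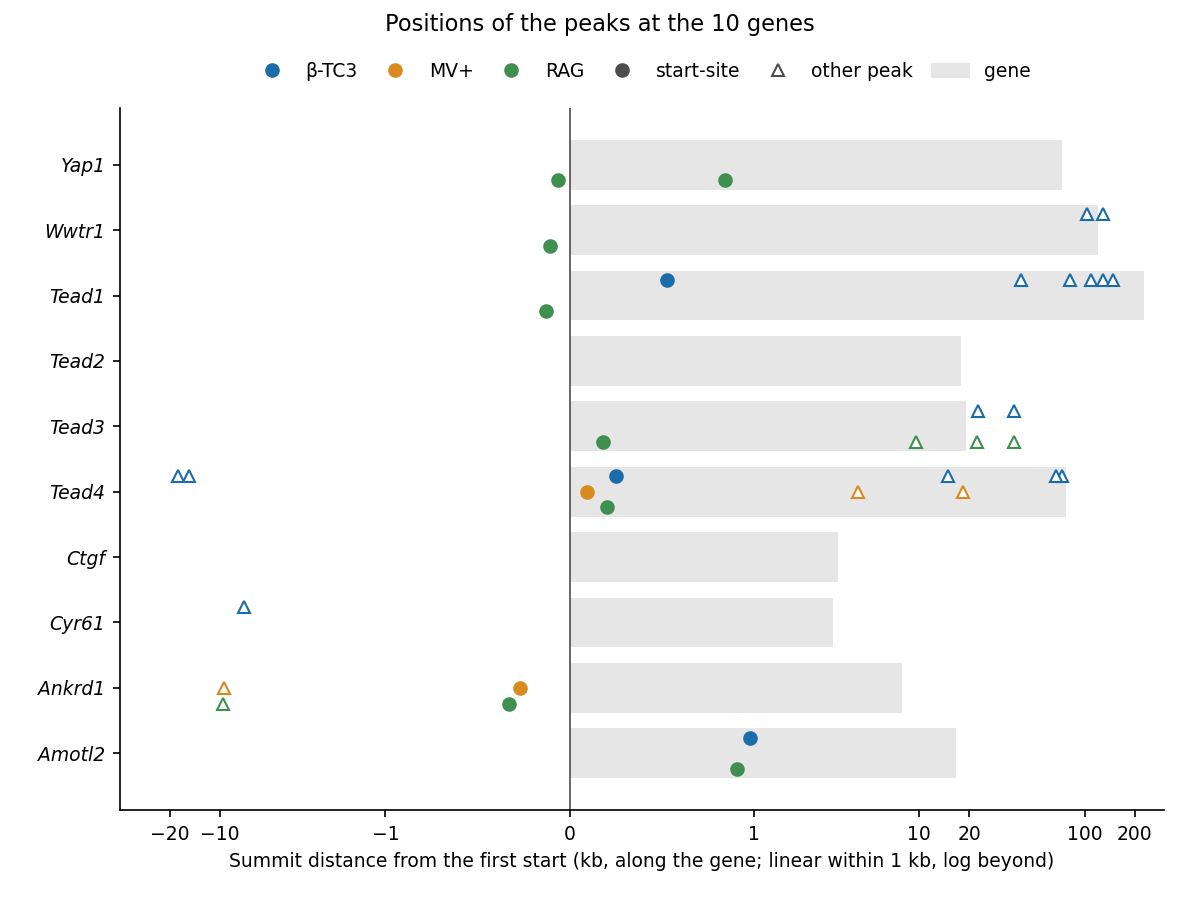
Distance of each peak summit from the first annotated start (horizontal axis, kb along the gene, linear within 1 kb and logarithmic beyond) for the 10 genes (vertical axis), coloured by cell line. Filled circles are start-site peaks, open triangles other peaks and grey bars the genes. *Tead1* and *Tead4* each hold 5 open triangles of β-TC3 cells, and *Tead2* and *Ctgf* hold no peak.

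Where these starts were called, most had a lower pileup than the middle start-site peak of the line. The median percentile of the start-site peaks was 64.9% in β-TC3 (3 peaks), 32.7% in MV+ (2 peaks) and 37.8% in RAG cells (8 peaks). With 9821 peaks in every line these medians were 21.9%, 32.7% and 19.5%, in another order, so the lines are not ranked by them. The latter medians leave out peaks lost at that number, among them those of *Tead1* in β-TC3 and *Tead3* in RAG cells. In the full lists, the median percentile over the start-site peaks of all protein-coding genes was 69.2%, 54.0% and 58.5% in the same lines. Ranked among such start-site peaks alone, 2 of 3 peaks in β-TC3, 2 of 2 in MV+ and 7 of 8 in RAG cells lay below the middle, the exceptions being *Tead4* in β-TC3 (59.6%) and *Wwtr1* in RAG cells (62.2%).

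**Figure D3:**
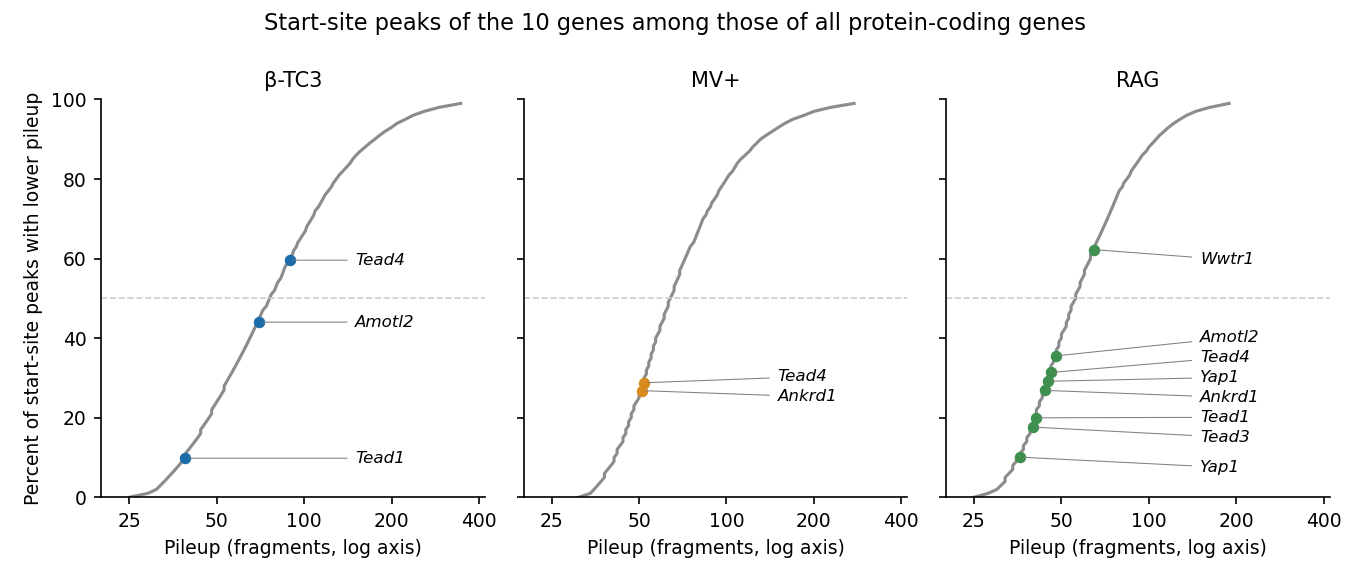
Percent of start-site peaks with a lower pileup (vertical axis) against pileup in fragments (horizontal axis, logarithmic) for the start-site peaks of all protein-coding genes (grey line, drawn to 99%), with those of the 10 genes as points, 1 panel per cell line. *Tead4* in β-TC3 and *Wwtr1* in RAG cells are the only points above the dashed middle line.

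Away from the starts, most peaks came from β-TC3 cells. The 10 genes had 15 other peaks in β-TC3, 3 in MV+ and 4 in RAG cells. This order turned with 9821 peaks in every line, where the counts were 2, 3 and 4. Other peaks over all genes were not counted at that number, so the turn cannot be read as particular to these genes. In the full lists, at least 1 such peak was found at 5 genes in β-TC3 (52.5% of all protein-coding genes), 2 in MV+ (21.1%) and 2 in RAG cells (36.3%). Per Mb of window this came to 15.5 other peaks in β-TC3, 3.11 in MV+ and 4.15 in RAG cells, beside 12.02, 3.46 and 6.37 for all protein-coding genes. *Tead1* and *Tead4* held 10 of the 15 β-TC3 peaks.

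The 5 other peaks of *Tead1* lay in its introns, between 41.2 and 147 kb after the first start, and had 61, 39, 43, 56 and 74 fragments. The highest, at chr7:119969652-119970368, had a fold enrichment of 5.59 and a percentile of 68.0% (55.3 to 78.3), and all 5 were at or above the 39 fragments of the start-site peak of that line. *Tead4* differed: its 5 other peaks in β-TC3 cells had 30 to 45 fragments, all below the 89 at its start, and percentiles of 4.74% to 36.1%. The highest of them, at chr6:128177508-128177991, had a fold enrichment of 2.61. In MV+ cells *Tead4* had 2 intronic peaks, of 57 and 53 fragments, at chr6:128246457-128246720 and chr6:128232286-128232606, with percentiles of 43.0% and 35.6%. None of these *Tead1* and *Tead4* peaks was called in a second line.

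At *Tead3*, the shared other peaks lay at the starts of neighbouring genes. One site, at the start of *Fance*, had 70 fragments in β-TC3 and 69 in RAG cells, and another, at the start of *Rpl10a*, had 37 and 64. The summits of these lines were 94 bp apart at *Fance* but 429 bp apart at *Rpl10a*. The remaining peak, in an intron of *Tead3* itself, was called in RAG cells alone (chr17:28477844-28478331, 56 fragments, fold enrichment 4.25, percentile 58.5%).

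Peaks of the lines that overlapped by at least 1 bp were merged into sites. The 10 genes had 27 sites, of which 7, or 25.9%, were called in more than 1 line, against 31.1% of all sites. Of their 8 start-site sites 4 were shared, against 63.9% of all start-site sites, and of their 19 other sites 3 were shared, against 16.1%. The *Tead4* start was the only site called in all 3 lines, 1 of 27 sites against 12.6% of all sites and 1 of 8 start-site sites against 30.2%. Of the sites called in a single line, 0 of 13 in β-TC3, 0 of 2 in MV+ and 4 of 5 in RAG cells were start-site sites, against 17.1%, 9.67% and 18.5% of all single-line sites in these lines. The 4 in RAG cells were at *Yap1* (2 sites), *Wwtr1* and *Tead3*.

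The core GGAATG was looked for on both strands in the 200 bp around each summit, together with the AP-1 sequence TGANTCA. The TEAD core was found in 4 of 18 peaks in β-TC3, 3 of 5 in MV+ and 6 of 12 in RAG cells, against 8.72%, 13.6% and 9.68% of all peaks. In RAG cells it was at the starts of *Yap1*, *Wwtr1*, *Tead1*, *Tead3* and *Amotl2* and at the upstream site of *Ankrd1*, that is, in 5 of 8 start-site peaks where 5.85% of all start-site peaks held it. In β-TC3 cells it was at the starts of *Tead4* and *Amotl2* and in an intron each of *Tead1* and *Tead4*. In MV+ cells it was at both *Ankrd1* sites and in an intron of *Tead4*. Peaks of 2 lines at 1 site share sequence, so these counts are not independent. Nor are they independent of the promoter counts above. The RAG copies at the starts of *Yap1*, *Wwtr1* and *Tead1* and the MV+ copy at that of *Ankrd1* are the promoter copies. The copies in the start-site peaks of *Tead3*, *Tead4* and *Amotl2* lie after the first start and are other copies. In the 100 bp around the summit, the counts were 1 in β-TC3, 0 in MV+ and 4 in RAG cells, against 4.3%, 6.87% and 5.06% of all peaks. The AP-1 sequence was found in 3 of 18 peaks in β-TC3 (9.53% of all peaks), 2 of 5 in MV+ (24.6%) and 0 of 12 in RAG cells (12%). No start-site peak of the 10 genes held it, where 3.41%, 4.39% and 3.39% of all start-site peaks in these lines did.

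The TEAD core and the AP-1 sequence both occurred in the 200 bp around the summit of 3 intronic peaks, with no limit on the distance between them. The *Tead1* peak shown here, chr7:119950909-119951108 in mm9 on the plus strand, was called in β-TC3 cells with 56 fragments, a fold enrichment of 4.46 and a percentile of 52.0%, and is shown as the strongest of them within its line. Capitals mark the TEAD core only. The AP-1 match, tgattca, lies near the other end of the stretch and not beside the core.
Tead1, β-TC3 intronic summit: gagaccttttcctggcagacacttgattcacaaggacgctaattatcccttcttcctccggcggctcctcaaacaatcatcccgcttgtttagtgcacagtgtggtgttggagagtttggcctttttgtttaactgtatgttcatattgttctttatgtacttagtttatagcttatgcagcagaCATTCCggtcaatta
The others were in introns of *Tead4*, with 32 fragments in β-TC3 and 53 in MV+ cells, and did not overlap.

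The rest of the pathway is given as counts, which were not tested against those of the 10 genes. Of 45 further pathway genes, a start-site peak was called at 31 in β-TC3 (68.9%), 16 in MV+ (35.6%) and 28 in RAG cells (62.2%), beside 46.5%, 21.5% and 36.1% of all protein-coding genes. Among 7 core kinases and scaffolds of the cascade that ends in the phosphorylation of YAP and TAZ, the counts were 6, 4 and 7. Among 16 upstream regulators they were 12, 6 and 10. Among 4 TEAD cofactors of the Vgll family they were 2, 2 and 1. Among 18 further targets of YAP and TEAD they were 11, 4 and 10. In all, 9 of the 45 were called in all 3 lines (17.5% of all protein-coding genes), 19 in 2 lines (18.4%), 10 in 1 line (14.6%) and 7 in none (49.4%).

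**Figure D4:**
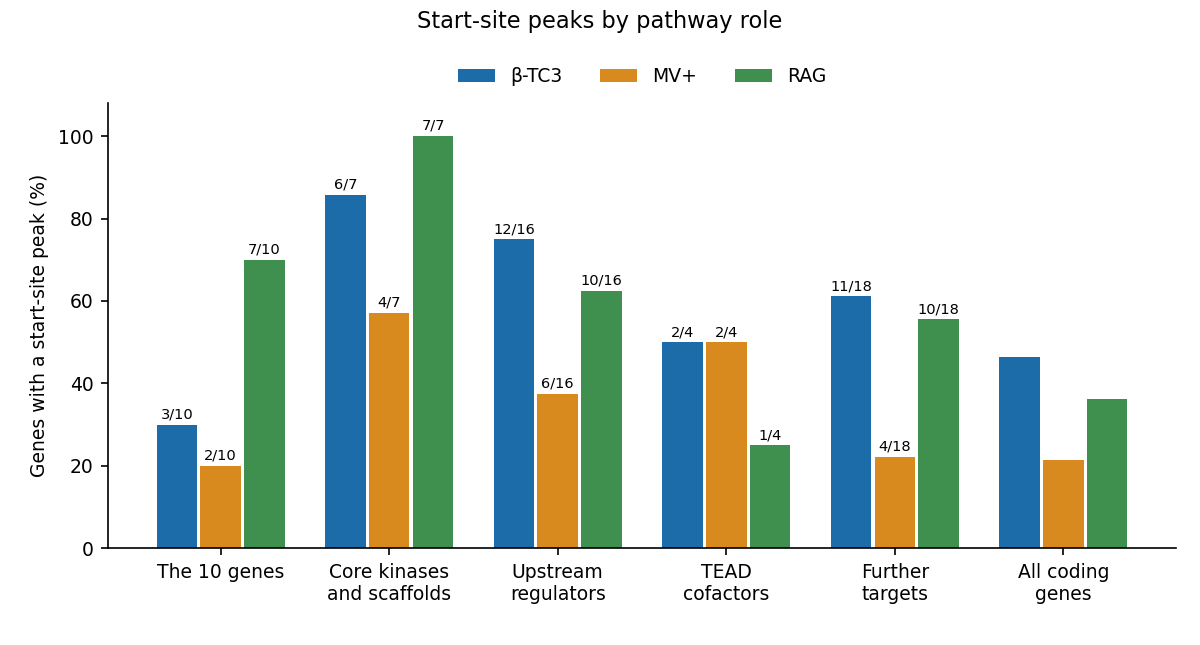
Percent of genes with a start-site peak (vertical axis, from 0) in each cell line (colour) for the 10 genes, the 4 groups of further pathway genes and all protein-coding genes (horizontal axis). Numbers above the bars are genes with a peak over genes in the group, with 7 of 7 core kinases and scaffolds in RAG and 3 of the 10 genes in β-TC3 cells.

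Among the kinases, *Lats2*, which encodes a kinase that phosphorylates YAP directly, had a start-site peak in RAG cells alone, with 33 fragments and a percentile of 10.1%. Its paralogue *Lats1* had 94 fragments in β-TC3 and 42 in RAG cells (percentiles of 78.8% and 31.9%), and the scaffold gene *Sav1* had 102 and 64 (81.8% and 68.7%). *Nf2*, which encodes the upstream activator merlin, had 99 fragments in β-TC3 and 32 in RAG cells (80.7% and 8.03%). These 4 genes had no start-site peak in MV+ cells, but the genes named here are those called in 1 or 2 lines, and the remaining core genes *Stk3*, *Stk4*, *Mob1a* and *Mob1b* were called in all 3 lines.

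The angiomotin genes, whose products bind YAP at cell junctions, were called in different lines. *Amot* had 129 fragments in β-TC3 and 97 in MV+ cells (percentiles of 89.2% and 81.7%) and no start-site peak in RAG cells. *Amotl1* had 55 fragments in β-TC3 cells alone (50.7%), whereas *Amotl2* had been called in β-TC3 and RAG cells. *Ptpn14*, which encodes a phosphatase that binds YAP, had 98 fragments in MV+ and 64 in RAG cells (82.2% and 68.7%), the same pair of lines as *Ankrd1*. The protocadherin gene *Fat4* had 63 fragments in β-TC3 cells alone (59.2%). *Taok1*, *Taok2*, *Map4k4* and *Rassf1* each had a start-site peak in β-TC3 and RAG cells, with 34 to 107 fragments in β-TC3 and 37 to 72 in RAG cells.

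The promoters of 9 of the 10 genes, all but *Ctgf*, varied in base composition. The GC content of the 250 bp before the first start was 76.4% at *Yap1*, 74.0% at *Tead1*, 67.6% at *Tead3* and 61.6% at *Wwtr1*, and 58.4% at *Tead4*. It was 54.8% at *Cyr61*, 57.2% at *Tead2*, 55.6% at *Ankrd1* and 54.0% at *Amotl2*, beside a median of 54.0% over all protein-coding genes. All of these stretches but that of *Amotl2* were above that median, whether or not the gene had a start-site peak. They are not always the sequence that was called. The start-site peaks of *Amotl2* and *Tead3*, and that of *Tead1* in β-TC3 cells, lay wholly after the first start. In the 200 bp around the *Amotl2* summits the GC content was 69% in β-TC3 and 71% in RAG cells. The part of base composition in these results was not tested.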

How the data were processed

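ATAC-seq was performed in duplicate in each of 3 mouse cell lines. Per the submitters' processing notes and the file headers, the authors trimmed reads with Trim Galore 0.4.1, aligned them to mm9 with Bowtie2 2.2.6 and handled alignments with SAMtools 1.6 and bedtools. MACS2 2.1.1 made the calls with a q-value limit of 0.05, on both replicates together and without a control library. The deposited pileup is a signal, the fragments at the summit, and is not scaled for depth. The deposited fold enrichment is a ratio, the pileup over the library's own local background, each with a pseudocount of 1. The authors' p-values and q-values are deposited as −log10 values. Whole fragments were used without a shift for the Tn5 cut, which can widen peaks. Mitochondrial fragments, which were part of the input, raise the genome-wide background.

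Tables were handled in Python 3.11.15 with pandas 2.3.3, NumPy 2.4.6, SciPy 1.17.1 for intervals and matplotlib 3.10.9. Genes, starts and sequences came from NCBIM37 (the same assembly as mm9) and GENCODE M1. The overlap code was tested on simulated peaks. No test between lines was made, because a line has 1 value. Alternatives were other start windows and flanks, the most 5′ start alone, peaks counted by centre, a q-value limit of 0.001, 9821 peaks in every line, other rankings, an overlap of 50% of both peaks and other motif windows. The genes and lists were chosen with earlier results of these data known. Named were all 10 genes with every start-site peak and, in each line, the highest other peak of each gene, every site of the 10 genes called in all 3 lines, and the first 12 further pathway genes in list order with a start-site peak in 1 or 2 lines. Other peaks were named after their values were seen. A further copy of the peak lists in another format, with the same peaks, was not used. The promoter of *Ctgf* is not reported here.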

Additional observations from a re-analysis of the deposited data

How the results depend on the processing

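No paired analysis was possible because both replicates of a line were pooled in 1 peak call, and for the same reason no replicate could be left out. The counts of genes with a start-site peak did not move by more than 1.5 times under any of the 6 alternatives tried, and the genes were the same under 5 of them. For counts this small the limit is loose, since a fall from 3 to 2 genes in β-TC3 cells stayed within it. With 9821 peaks in every line, *Tead1* was lost in β-TC3 and *Tead3* in RAG cells, the other peaks in β-TC3 cells fell from 15 to 2, and the median percentile of the start-site peaks was 21.9% in place of 64.9% in β-TC3 and 19.5% in place of 37.8% in RAG cells. Ranked among start-site peaks alone, the median in β-TC3 cells was 44.0%. Without the flank there were 9 other peaks in β-TC3 and 1 in RAG cells (main values 15 and 4), and with a flank of 50 kb there were 6 in MV+ and 7 in RAG cells (main values 3 and 4). In the 100 bp around the summit, the TEAD core was found in 1 peak in β-TC3, 0 in MV+ and 4 in RAG cells (main values 4, 3 and 6). The cause of these shifts was not tested, beyond the fewer peaks and shorter or longer windows that the alternatives impose. In all, 57 of 66 values over the 10 genes stayed within 1.5 times the main count or within the counting interval. Of the values of single genes and peaks 106 stayed so and 6 moved, among them *Tead4* and *Amotl2* in β-TC3 cells, whose percentiles by fold enrichment were 51.5% and 79.0%. Many of the counting intervals are wide and the counts small, so these totals are a weak check of stability. These results say least where a gene has no peak, since no site under 25 fragments in β-TC3 and RAG cells or 30 in MV+ cells was called. A site above these limits may also have gone uncalled, and what sets the limits was not tested.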

Other observations

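Starts near the 10 genes gave the following values. *Yap1* lay beside *9230110C19Rik*, whose start had 152 fragments in β-TC3 (percentile 92.8%) and 88 in MV+ cells (76.8%). The nearest peak to the first start of *Wwtr1* in β-TC3 cells was at the start of *Commd2* (62 fragments, 75.4 kb away) and in MV+ cells at the start of *Rnf13* (71 fragments, 160 kb away). The nearest peak to the first start of *Ankrd1* in β-TC3 cells was at the start of *Rpp30*, 35.8 kb away, with 68 fragments (63.3%). The nearest peak to the first start of *Ctgf* in RAG cells, at the start of *Med23*, had 109 fragments (91.9%).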
